A study of Mus musculus with 6 samples.

Results

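The Cyp3a genes encode cytochrome P450 enzymes of subfamily 3A. The 6 members Cyp3a11, Cyp3a13, Cyp3a16, Cyp3a25, Cyp3a41a and Cyp3a44 were taken as a named list from the 16623 gene columns of the table, and each has a column. They were chosen with wild-type and SIRT7 KO values of these same mice in view, so the values by genotype are a description and carry no p. Another 2 columns, Cyp3a41b and Cyp3a59, are named Cyp3a and are not on the list.

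CYP3A enzymes sit in the endoplasmic reticulum of hepatocytes, take electrons from P450 reductase (encoded by Por), and oxidize drugs, steroids and bile acids. Their transcription is driven by the nuclear receptors PXR (Nr1i2) and CAR (Nr1i3). In mouse liver Cyp3a11 is the main drug-inducible form, while Cyp3a16, Cyp3a41a and Cyp3a44 are known as female-predominant genes that depend on the pattern of growth hormone secretion.

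Livers of 3 wild-type mice and 3 SIRT7 KO mice, all 5 to 6 months old, were measured by droplet single-cell RNA sequencing of 3' transcript ends, with hepatocytes and other liver cells combined in each library. SIRT7 is a histone deacetylase, and mice that lack it were used as a model of fatty liver arising on ordinary chow. No Cre or promoter is named in the sources used here, and the labels give neither sex nor litter. Replicates are separate mice, and cells of a mouse were averaged before mice were compared.

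The table holds 11610 cells, with 2511947 to 11069411 UMIs per mouse. Sirt7 itself averaged 0.718, 0.512 and 0.546 CP10K (UMIs per 10000) over all cells of wild-type mice 1 to 3, and 0.10, 0.0814 and 0.139 CP10K in SIRT7 KO mice 1 to 3. The genotypes did not overlap. Xist, which is transcribed from the inactive X chromosome, was between 24.8 and 104 CP10K in all 6 mice, and 0 of 4 listed Y-linked genes has a column. Of the barcodes, 13 occurred in more than 1 library, in 26 cells.

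The authors' cell types are not in the table used here, so cells were clustered without the Cyp3a genes, giving 11 clusters. Clusters 3 and 5 are the hepatocyte clusters, with 2962 cells in all (101 to 930 per mouse), and each had all 15 hepatocyte markers detected. Cluster 3 held 1753 cells, and 3 hemoglobin genes were among its 10 leading genes. It is therefore described by number, as is cluster 5 with 1209 cells. They differed most plainly in nuclear RNA. Malat1, a nuclear noncoding RNA, averaged 10.4 CP10K in cluster 3 and 379 CP10K in cluster 5, and Xist averaged 2.04 and 201 CP10K. Cluster 5 made up 80.9% of the hepatocyte cells of SIRT7 KO mouse 3, against 19.6% to 46.5% in the other mice. Values over both clusters and over zones therefore mix the clusters in proportions that differ between mice, and values of each cluster are given beside the main ones.

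In the GENCODE annotation of GRCm38 all 6 genes lie on chromosome 5, on the minus strand. Cyp3a16 (chr5:145436309-145469723), Cyp3a41a (chr5:145694049-145720136), Cyp3a44 (chr5:145773983-145805874), Cyp3a11 (chr5:145854426-145879964) and Cyp3a25 (chr5:145977194-146009618) follow each other in a cluster, and Cyp3a13 (chr5:137892932-137921619) stands apart. The 3' ends decide how well reads of these genes can be told apart. Over the last 500 transcript bases, 100% of the 90-base windows of Cyp3a41a also occur in Cyp3a41b, so the counts of these genes are uncertain. The share was 12.2% for Cyp3a44 (in the pseudogene Cyp3a63-ps), 2.92% for Cyp3a16 and 2.05% for Cyp3a25, and it was 0 for Cyp3a11 and Cyp3a13.

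The 250 bases upstream of the RefSeq start (GRCm38.p6, minus strand, 5' to 3') are shown for 4 members, because Cyp3a11, Cyp3a25 and Cyp3a44 are the members whose mice did not overlap between genotypes in cluster 3 or cluster 5, and Cyp3a16 is close to Cyp3a44 in this window. Capitals mark AGGTCA on either strand, the half-site of nuclear receptors. The windows are chr5:145879855-145880104, chr5:146009619-146009868, chr5:145805875-145806124 and chr5:145469724-145469973.
Cyp3a11: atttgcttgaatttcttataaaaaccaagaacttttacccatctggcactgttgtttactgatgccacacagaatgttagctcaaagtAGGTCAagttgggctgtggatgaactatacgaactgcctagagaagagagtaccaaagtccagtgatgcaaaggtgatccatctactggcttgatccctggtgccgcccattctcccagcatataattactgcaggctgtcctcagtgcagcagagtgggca
Cyp3a25: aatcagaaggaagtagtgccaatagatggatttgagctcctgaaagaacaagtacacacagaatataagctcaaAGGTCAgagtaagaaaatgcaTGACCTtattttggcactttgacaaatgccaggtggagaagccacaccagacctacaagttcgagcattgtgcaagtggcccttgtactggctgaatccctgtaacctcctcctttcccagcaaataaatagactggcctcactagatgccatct
Cyp3a44: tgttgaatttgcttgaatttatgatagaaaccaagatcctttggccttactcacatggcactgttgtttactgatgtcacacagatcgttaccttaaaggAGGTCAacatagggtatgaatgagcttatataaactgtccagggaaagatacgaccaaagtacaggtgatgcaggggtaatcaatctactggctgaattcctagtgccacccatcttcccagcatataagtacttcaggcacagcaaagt
Cyp3a16: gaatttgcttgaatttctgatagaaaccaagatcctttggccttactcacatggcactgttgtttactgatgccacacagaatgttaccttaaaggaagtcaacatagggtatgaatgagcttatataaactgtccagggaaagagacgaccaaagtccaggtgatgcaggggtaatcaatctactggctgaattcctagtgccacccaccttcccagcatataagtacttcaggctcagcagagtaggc
AGGTCA occurred once in the Cyp3a11 and Cyp3a44 windows, 2 times in that of Cyp3a25 and not in those of Cyp3a13, Cyp3a16 and Cyp3a41a, and 13.8% of 27025 mouse promoter windows held it. TTCNNNGAA, the letters of a STAT site, was in none of the 6 members' windows and in 7.18% of all. Cyp3a16 and Cyp3a44 shared 92.9% of aligned bases, and Cyp3a41a and Cyp3a44 shared 94.4%. Cyp3a11 shared 71.7% with Cyp3a44, and Cyp3a25 shared 51.8% with it.

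Among drug-metabolizing members, Cyp3a11 had the most UMIs in the hepatocyte clusters, 6810. In cluster 5 its mean was 6.98, 3.17 and 6.80 CP10K in wild-type mice 1 to 3 and 22.5, 12.5 and 21.8 CP10K in SIRT7 KO mice 1 to 3. Every SIRT7 KO mouse was above every wild-type mouse. The means were 5.65 ± 2.15 and 18.9 ± 5.55 CP10K (SD, n = 3 each), a difference of 1.77 ± 0.40 (SE) in log2(CP10K + 0.05), the scale of every log2 difference given here. In cluster 3 the wild-type values were 9.02, 5.56 and 3.72 CP10K and the SIRT7 KO values were 7.69, 3.42 and 18.4 CP10K. There the genotypes overlapped, and SIRT7 KO mouse 3 alone was above all wild-type mice. The log2 difference was 0.46 ± 0.70 (SE).

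Cyp3a25, a constitutive liver form, did not follow Cyp3a11 in cluster 3. Its cluster 3 values were 2.53, 2.61 and 2.01 CP10K in wild-type mice and 0.977, 0.629 and 1.97 CP10K in SIRT7 KO mice. The genotypes did not overlap, although wild-type mouse 3 and SIRT7 KO mouse 3 were nearly level, and the log2 difference was -1.11 ± 0.36 (SE). In cluster 5 the values were 5.80, 14.8 and 19.3 CP10K in wild-type mice and 16.0, 9.32 and 20.4 CP10K in SIRT7 KO mice. These overlapped, with a log2 difference of 0.29 ± 0.44 (SE).

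Cyp3a13, the member outside the gene cluster, was lower than both. In cluster 3 it was at 1.21, 1.39 and 0.339 CP10K in wild-type mice and 0.284, 0.103 and 0.474 CP10K in SIRT7 KO mice. Wild-type mouse 3 fell among the SIRT7 KO mice, so the genotypes overlapped, with a log2 difference of -1.57 ± 0.55 (SE). Cluster 5 also showed overlap for Cyp3a13, with 1.07 to 1.997 CP10K in wild-type mice and 0.421 to 1.30 CP10K in SIRT7 KO mice.

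The female-predominant forms were led by Cyp3a44. In cluster 5 it was at 3.47, 4.55 and 3.67 CP10K in wild-type mice and at 0.104, 0.136 and 1.93 CP10K in SIRT7 KO mice. All SIRT7 KO mice were below all wild-type mice, and SIRT7 KO mouse 3 lay much nearer to the wild-type mice than the other two did. The log2 difference was -3.35 ± 0.96 (SE). Cluster 3 gave 2.90, 7.30 and 1.23 CP10K in wild-type mice and 0.0907, 0.0887 and 2.27 CP10K in SIRT7 KO mice. Here SIRT7 KO mouse 3 was above wild-type mouse 3 and the genotypes overlapped, with a log2 difference of -3.09 ± 1.47 (SE).

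Cyp3a16 and Cyp3a41a rest on few molecules. Cyp3a16 had 92 UMIs in wild-type and 31 UMIs in SIRT7 KO hepatocyte clusters. In cluster 5 it was at 0.164 to 0.664 CP10K in wild-type mice and at 0 to 0.185 CP10K in SIRT7 KO mice, which overlapped. Cyp3a41a had 35 and 15 UMIs, and its cluster 5 levels were 0.0744 to 0.177 CP10K and 0 to 0.0895 CP10K. SIRT7 KO mouse 3 was the highest SIRT7 KO mouse for both genes in cluster 5.

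**Figure D1:**
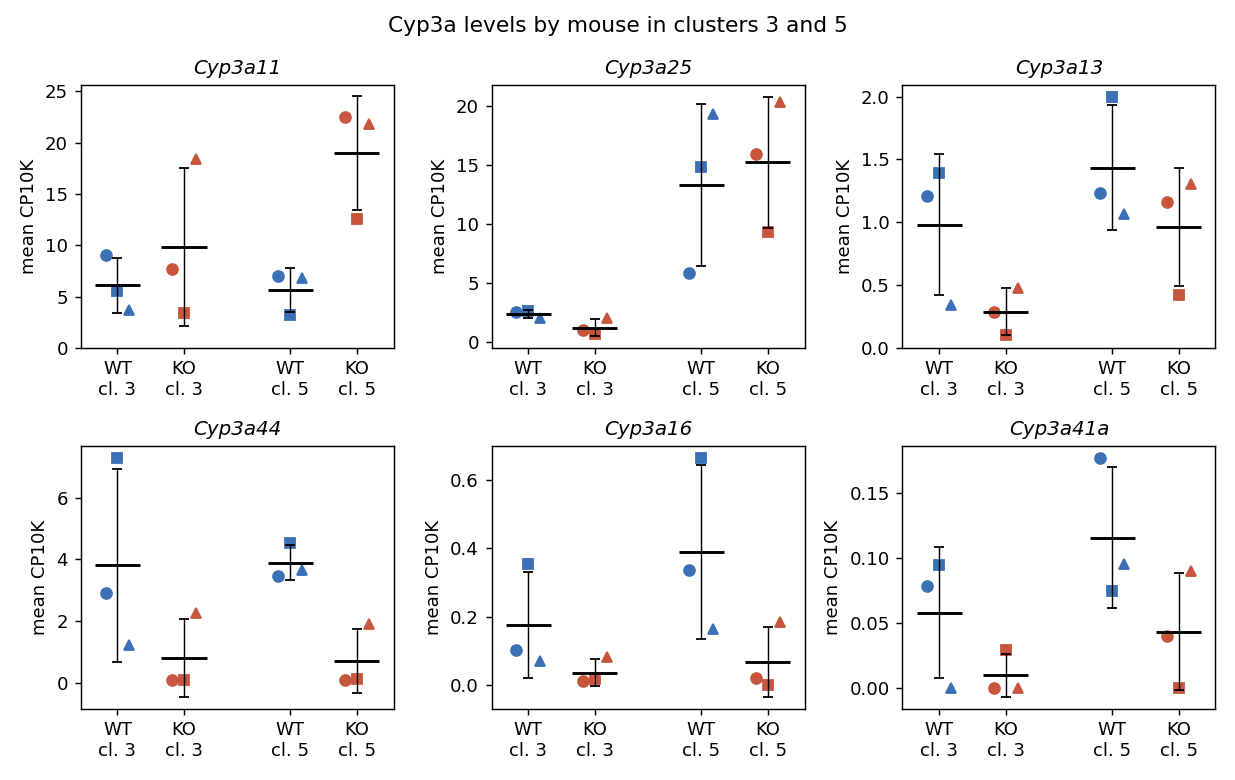
Mean CP10K of each member (y axis, linear) in clusters 3 and 5 for wild-type (WT, blue) and SIRT7 KO (KO, red) mice. Circles, squares and triangles are mice 1, 2 and 3, and the black bars give the mean and SD. Cyp3a11 in cluster 5 lies between 12.5 and 22.5 CP10K in KO mice and at or below 6.98 CP10K in WT mice, and Cyp3a44 in cluster 5 is at or below 1.93 CP10K in KO mice and at least 3.47 CP10K in WT mice.

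Over both clusters together Cyp3a44 had a log2 difference of -3.40 ± 0.92 (SE) and no overlap, beside 3.21% of all genes lower in this way, and Cyp3a11 had 0.95 ± 0.52 (SE) and overlapped. No member was higher without overlap there, beside 10% of all genes. The limma fit over all genes passed none of the 6 members at an adjusted p of 0.05 in clusters 3 and 5 together, where it passed 11 of 9875 genes (0.111%; 743 genes had an unadjusted p under 0.05). None passed in cluster 3 or cluster 5 either, where 0.48% and 0.233% of genes did. Of members whose mice did not overlap, cluster 5 had 1 higher and 1 lower in SIRT7 KO mice (Cyp3a11 and Cyp3a44), beside 12.7% and 4.01% of all genes tested. Cluster 3 had 1 of 5 tested members lower (Cyp3a25) beside 8.65% of all genes, and none higher beside 7.76%. Without SIRT7 KO mouse 3 the fit passed 1 member over both clusters (Cyp3a44) beside 0.0828% of all genes, 2 in cluster 3 (Cyp3a25 and Cyp3a44, lower) beside 1.69%, and 2 in cluster 5 (Cyp3a11, higher, and Cyp3a44, lower) beside 0.996%. The members were chosen on this contrast, so nothing is read from any of these counts. All 6 members passed the filter on low values in cluster 5, and 5 did in cluster 3, where Cyp3a41a did not. The median log2 difference was -0.77 over the members tested in cluster 5, where 2 were above 0 and 4 below. In cluster 3 it was -1.26, with 1 above 0 and 4 below. Over all genes the medians were 0.20 in cluster 5 and -0.09 in cluster 3. The members' medians come from the contrast on which they were chosen, so nothing is read from them either.

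Immediate-early genes, which are rapidly induced by stimuli that include the handling of tissue, differed by genotype in cluster 5. There 4 of 7 tested genes of a list of 8 were lower in SIRT7 KO mice and none was higher, beside 0.233% of all genes, with a median log2 difference of -2.98. Junb, a subunit of the AP-1 factor, was at 9.40, 4.25 and 5.87 CP10K in wild-type mice and 1.08, 0.546 and 0.225 CP10K in SIRT7 KO mice (adjusted p = 0.00123 by limma). The others were Ier2 (adjusted p = 0.0019 by limma), the transcription factor gene Egr1 (adjusted p = 0.0306 by limma) and Fos (adjusted p = 0.0406 by limma). The summed level of the 8 genes was 29.1 to 61.4 CP10K in wild-type mice and 6.62 to 14.9 CP10K in SIRT7 KO mice. In cluster 3 it was 1.93 to 3.21 and 1.76 to 2.85 CP10K, and none of 7 tested genes passed, with a median of -0.32. Up to 2 of the 8 genes in a mouse had no UMI in cluster 5 and up to 3 in cluster 3. This list was not one of those set out before testing, so its counts are a description. The part of these genes' change in the cluster 5 values of Cyp3a11 and Cyp3a44 was not tested.

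The make-up of the family's UMIs does not depend on how much other RNA a cell holds. Cyp3a11 gave 57.5%, 30.4% and 41.3% of the UMIs of the 6 genes in cluster 3 of wild-type mice 1 to 3, and 84.1%, 77.8% and 76.8% in SIRT7 KO mice 1 to 3. In cluster 5 the shares were 38.9%, 12.5% and 21.5% against 55.4%, 52.8% and 47.7%. The shares were higher in SIRT7 KO mice in both clusters without overlap, while the level of Cyp3a11 overlapped in cluster 3. No share over all genes stands beside this, and the members were chosen on this contrast, so it is a description. The shares of the 6 genes add up to the whole, so a lower share of Cyp3a44 by itself raises that of Cyp3a11, and the shares are not separate measurements. The least certain of these shares, from 75 UMIs in cluster 3 of wild-type mouse 3, had a Wilson 95% interval of 30.9% to 52.6%, which covers counting error only.

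Cyp3a44 gave 18.4%, 45.1% and 22.7% of the family's UMIs in cluster 3 of wild-type mice and 0.975%, 2.61% and 9.86% in SIRT7 KO mice. In cluster 5 it gave 18.8%, 17.5% and 11.6% against 0.233%, 0.629% and 4.29%. The groups did not overlap in either cluster, and SIRT7 KO mouse 3 had the highest share of its genotype in both. This too is a description with no share over all genes beside it. Cyp3a25 overlapped between genotypes in both clusters, with 32.8% to 62.2% in wild-type and 41.3% to 45.3% in SIRT7 KO mice in cluster 5.

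**Figure D2:**
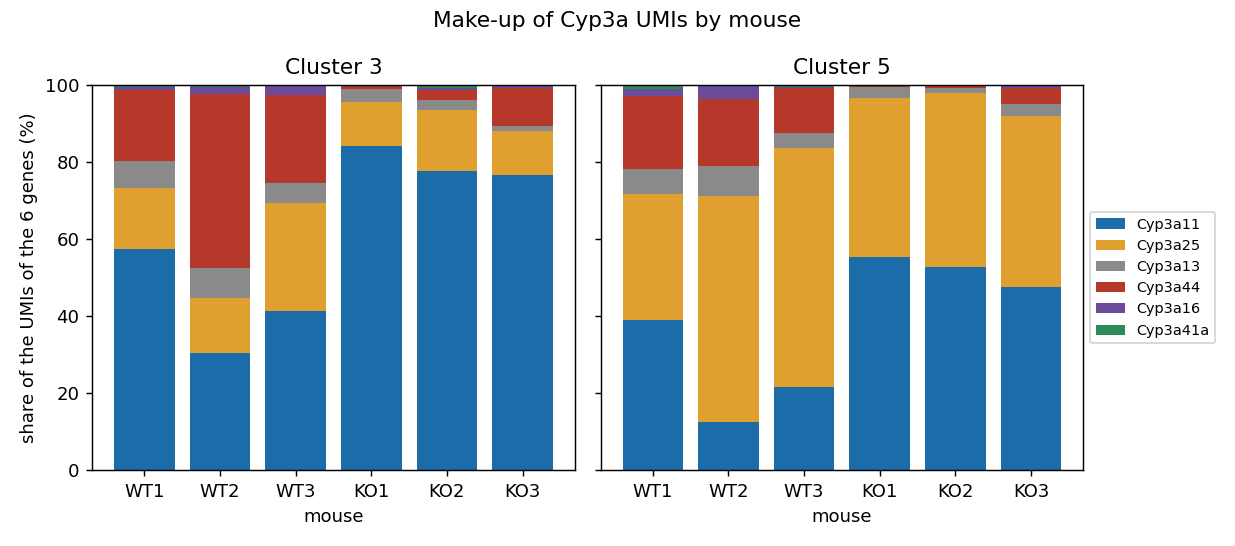
Share of each member (colors) in the UMIs of the 6 genes (y axis, percent) for each mouse (WT, wild-type, and KO, SIRT7 KO) in cluster 3 (left) and cluster 5 (right). The Cyp3a11 part is larger in each KO mouse than in any WT mouse of the same cluster, and the Cyp3a44 part is at most 9.86% in KO mice and at least 11.6% in WT mice.

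The members also differed between the clusters of the same mouse. Cyp3a25 was 2.29, 5.69 and 9.61 times as high in cluster 5 as in cluster 3 of wild-type mice 1 to 3, and 16.3, 14.8 and 10.3 times as high in SIRT7 KO mice 1 to 3. For Cyp3a11 the ratio was 0.775, 0.57 and 1.83 in wild-type mice and 2.92, 3.67 and 1.19 in SIRT7 KO mice. Cyp3a13 ranged from 1.02 to 4.1 over the 6 mice, Cyp3a44 from 0.623 to 2.97, and Alb, the albumin gene, from 0.382 to 0.842. Cyp3a25 and Cyp3a13 were thus higher in cluster 5 in 6 of 6 mice, while Cyp3a11 and Cyp3a44 were on either side of 1. The clusters were drawn from genes of these same cells, so this is a description. The part of nuclear RNA content in it was not tested.

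Zones were set by a score of pericentral minus periportal marker genes that holds no Cyp3a gene, which cut the 2962 cells into central, middle and portal groups of equal size. Of these cells, 490 lay within 0.02 of a limit of the score. The zones also differed in cluster, with 24.6% of central and 62.6% of portal cells from cluster 5. This comparison was not used to choose the members and was tested within mice.

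Of the 5 members tested (Cyp3a41a was under the filter on low values), none differed between central and portal cells at an adjusted p of 0.05 (limma, Benjamini-Hochberg over 9806 genes), and 0 of all those genes did (0%), although 512 had an unadjusted p under 0.05. Cyp3a44 was higher in central cells in 5 of 6 mice, with a log2 difference of 0.42 (95% interval -0.30 to 1.13, adjusted p = 0.898 by limma). Cyp3a13 was higher in central cells in 1 of 6 mice, with -0.58 (-1.35 to 0.19, adjusted p = 0.889 by limma). Cyp3a16 had the widest interval, 0.91 (-0.17 to 1.99, adjusted p = 0.889 by limma). The intervals leave room for differences of more than 1 on the log2 scale in Cyp3a13, Cyp3a16, Cyp3a25 and Cyp3a44. Within cluster 3 and within cluster 5, each in the 4 mice with at least 20 cells in both zones, the log2 differences were 1.05 and 0.69 for Cyp3a44, 0.63 and -0.74 for Cyp3a13 and 0.28 and -0.16 for Cyp3a25. Cyp3a13 and Cyp3a25 thus had opposite signs in the clusters, and none of these passed the threshold.

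Cyp3a25 was at 4.17, 4.60 and 12.8 CP10K in central cells and 3.997, 6.69 and 3.87 CP10K in portal cells of wild-type mice 1 to 3. In SIRT7 KO mice it was at 3.43, 1.51 and 12.2 CP10K in central and 15.1, 4.62 and 20.6 CP10K in portal cells. Portal cells were higher in all SIRT7 KO mice and in wild-type mouse 2. The log2 difference over 6 mice was -0.54 (95% interval -1.39 to 0.32, adjusted p = 0.889 by limma). Among the fits with 1 mouse left out it passed the threshold only without wild-type mouse 3, at -0.987.

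Cyp3a11 was at 7.92, 5.75 and 7.99 CP10K in central and 8.50, 2.85 and 2.25 CP10K in portal cells of wild-type mice. The SIRT7 KO values were 12.1, 4.69 and 19.97 CP10K in central and 18.5, 6.69 and 20.9 CP10K in portal cells. Portal values were the higher ones in all SIRT7 KO mice and in wild-type mouse 1. The difference over 6 mice was 0.25 (95% interval -0.43 to 0.94, adjusted p = 0.931 by limma). Only 6 Cyp3a11 UMIs stood behind the portal value of wild-type mouse 3.

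By genotype within zones, Cyp3a44 had a log2 difference of -3.62 in central, -3.14 in middle and -3.15 in portal cells, and the mice did not overlap in central and portal cells, beside 4% and 3.22% of all genes lower in this way. In middle cells no member was lower without overlap, beside 3.38% of genes. Cyp3a11 had 0.54, 1.13 and 1.84 and overlapped in each zone, and no member was higher without overlap in central, middle or portal cells, beside 6.68%, 9.17% and 14% of genes. The limma fit passed none of the members in any zone, beside 0.104%, 0.215% and 0.0713% of genes in central, middle and portal cells. Malat1 in portal cells was at 104 to 216 CP10K in wild-type mice and 215 to 333 CP10K in SIRT7 KO mice, which overlapped. The part of nuclear RNA and of cluster make-up in the zone values was not tested.

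**Figure D3:**
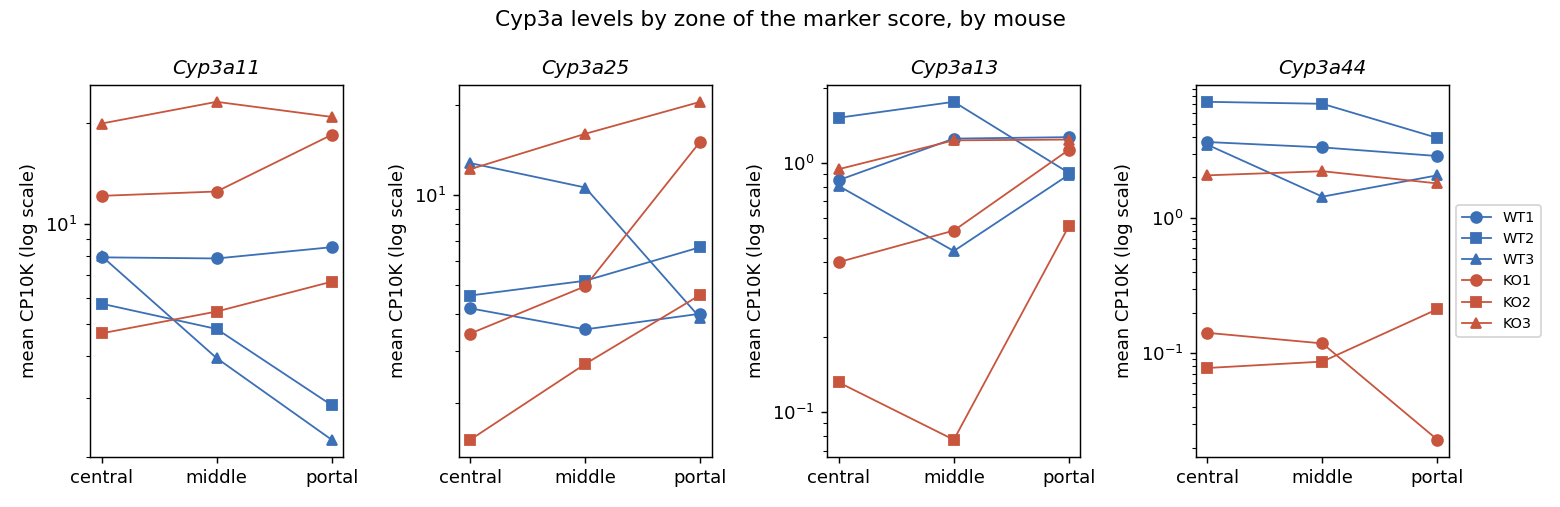
Mean CP10K (y axis, log scale) of the 4 members with the most UMIs in central, middle and portal cells. Each line is a mouse, blue for wild-type (WT) and red for SIRT7 KO (KO). Cyp3a44 is at or below 2.22 CP10K in every zone of each KO mouse. WT mouse 3 is also below that, at 1.44 CP10K in middle and 2.07 CP10K in portal cells. Cyp3a25 is higher in portal than in central cells of all KO mice.

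Outside the hepatocyte clusters the members were found at low levels. Of 10183 Cyp3a11 UMIs, 66.9% were in clusters 3 and 5, and for Cyp3a25 and Cyp3a44 the shares were 90.4% and 84.8%. In macrophage-like cells Cyp3a11 averaged 1.54 ± 1.11 CP10K (SD, n = 6 mice), and the other classes with at least 20 cells in a mouse averaged 0.633 to 2.59 CP10K. These levels overlap between classes over the mice, and their means are below the 7.96 ± 5.55 CP10K of cluster 3 and the 12.3 ± 8.20 CP10K of cluster 5. In 6 of 6 mice, all cells outside the hepatocyte clusters were together below both clusters of the same mouse.

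Set against albumin, Cyp3a11 outside the hepatocyte clusters was near the cluster 3 value of each mouse, but mice within a genotype ranked differently. It gave 5.15, 3.69 and 6.06 UMIs per 100 Alb UMIs in the other cells of wild-type mice 1 to 3 and 18.1, 22.0 and 14.2 in SIRT7 KO mice 1 to 3. In cluster 3 the figures were 6.24, 2.26 and 4.11 against 14.9, 14.3 and 15.8. The other cells were at 0.825 to 1.63 times cluster 3 of their own mouse. Cluster 5 stood higher, at 6.69, 3.88 and 15.7 in wild-type and 56.3, 68.3 and 28.9 in SIRT7 KO mice. Relative to albumin, Cyp3a11 was therefore higher in each SIRT7 KO mouse than in any wild-type mouse in the other cells and in both clusters. No share of all genes was worked out for this ratio, and the members were chosen on this contrast, so it is a description. In cluster 3 the Cyp3a11 levels themselves overlapped, and SIRT7 KO mouse 2, at 3.42 CP10K, was below all wild-type mice. Albumin itself overlapped between genotypes, with 49.8, 22.7 and 105 CP10K in cluster 3 against 138, 212 and 59.9 CP10K in wild-type mice, and its part in the ratio was not tested.

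For Cyp3a25 the other cells were at 0.621 to 1.87 times cluster 3 of their mouse, while cluster 5 was 4.18 to 19.4 times the other cells. Cyp3a44 was at 0.31 to 1.11 times cluster 3. Cells with at least 1000 UMIs were also thinned to 1000 UMIs each, and cells with fewer were left out of the thinned shares. A Cyp3a11 UMI was then in 5.37% to 25.0% of macrophage-like cells (10.9% to 72.6% of all cells unthinned). In cluster 5 it was in 21.6% to 89.4% (38.2% to 98.5% of all cells unthinned). There 111 of 412 cells of SIRT7 KO mouse 1 and 27 of 56 of SIRT7 KO mouse 2 were left out. Macrophages are not known to express Cyp3a11, and the source of the UMIs in them was not tested.

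**Figure D4:**
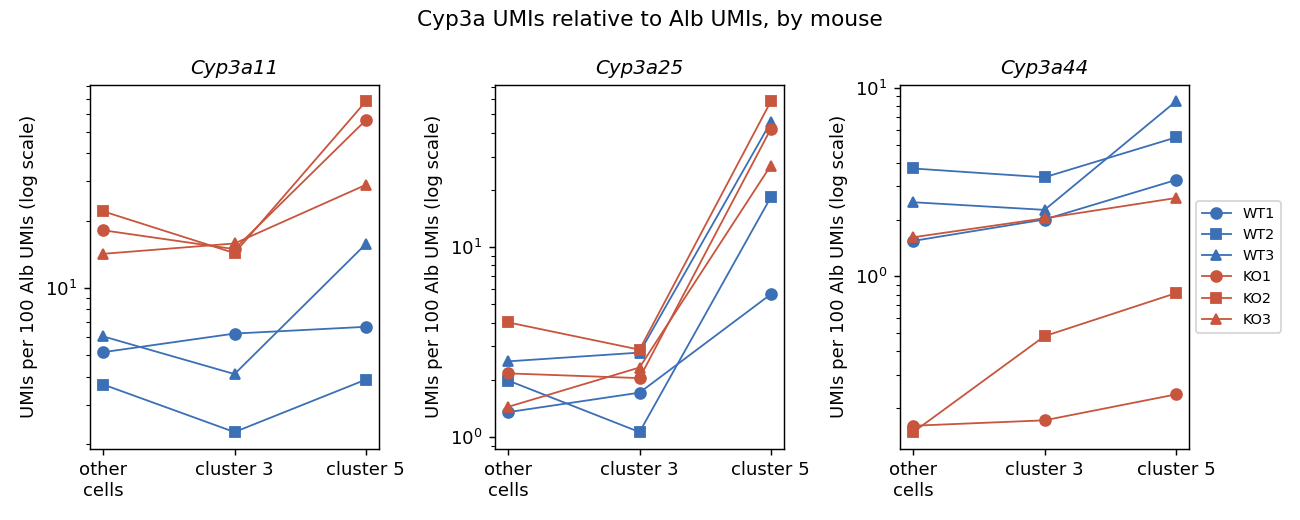
UMIs of Cyp3a11, Cyp3a25 and Cyp3a44 per 100 Alb UMIs (y axis, log scale) in all cells outside clusters 3 and 5 (other cells), in cluster 3 and in cluster 5. Each line is a mouse, blue for wild-type (WT) and red for SIRT7 KO (KO). Other cells and cluster 3 of a mouse lie within 1.63 times of each other for Cyp3a11, and Cyp3a25 rises to between 5.64 and 58.5 in cluster 5.

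Genes around the family were taken from lists. These were chosen with earlier results of these data known, so the counts of list genes here and below are descriptions. None of 19 tested regulators of Cyp3a transcription, 14 P450 partners and heme enzymes, 13 further PXR and CAR targets, 9 growth hormone signaling genes and 7 male-predominant genes passed the threshold over clusters 3 and 5 together, beside 0.111% of all genes. The median log2 difference was 0.10, -0.08, -0.37, 0.04 and -0.50 for these lists and 0.16 over all genes. None of these lists had a call in cluster 3 or in cluster 5 alone, beside 0.48% and 0.233% of all genes.

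The levels of single regulators differed between the clusters. PXR (Nr1i2) averaged 0.531 CP10K in wild-type mice and 1.11 CP10K in SIRT7 KO mice over both clusters, a log2 difference of 1.07 ± 0.40 (SE, adjusted p = 0.598 by limma). In cluster 3 the means were 0.341 and 0.392 CP10K and the genotypes overlapped, with a log2 difference of 0.10 ± 0.46 (SE). In cluster 5 they were 0.868 and 1.95 CP10K without overlap, with 1.34 ± 0.44 (SE, adjusted p = 0.302 by limma). CAR (Nr1i3) had -0.41 over both clusters (adjusted p = 0.918 by limma), -0.03 in cluster 3 and -0.75 in cluster 5. P450 reductase (Por) had -0.95 over both (adjusted p = 0.63 by limma), -0.57 in cluster 3 and -0.68 in cluster 5. The growth hormone receptor gene Ghr had -0.19 over both clusters. In cluster 3 alone it averaged 3.12 CP10K in wild-type mice and 1.54 CP10K in SIRT7 KO mice without overlap, a log2 difference of -0.99 ± 0.29 (SE, adjusted p = 0.165 by limma), and in cluster 5 it overlapped, with 0.17 ± 0.37 (SE). Stat5b, which carries the growth hormone signal to the nucleus, had 0.07 over both, -0.45 in cluster 3 and 0.21 in cluster 5. Cyp2b10, a CAR target, was under the filter on low values.

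Of 11 tested female-predominant genes other than Cyp3a, 1 was lower in SIRT7 KO mice over both clusters and none was higher, beside 0.111% of all genes, with a median log2 difference of -0.68. It was Hao2, a hydroxyacid oxidase, at 1.40, 1.16 and 0.880 CP10K in wild-type mice and 0.0829, 0.238 and 0.197 CP10K in SIRT7 KO mice (adjusted p = 0.0249 by limma), a call lost in 11 of 21 alternatives. In cluster 3, 2 of the 11 genes were lower, Hao2 (adjusted p = 0.0177 by limma) and the sulfotransferase gene Sult2a1, and in cluster 5 Sult2a1 alone was, where Hao2 had -2.02 (adjusted p = 0.16 by limma). In cluster 3, Sult2a1 had a mean of 33.6 CP10K in wild-type mice against 10.1 CP10K in mice without SIRT7, a log2 difference of -1.82 ± 0.27 (SE, adjusted p = 0.00545 by limma). In cluster 5 it was at 17.1, 18.8 and 5.18 CP10K in wild-type mice and 1.76, 2.11 and 2.62 CP10K in SIRT7 KO mice, a log2 difference of -2.45 ± 0.44 (SE, adjusted p = 0.0172 by limma). Over both clusters together Sult2a1 had -2.01 and did not pass (adjusted p = 0.266 by limma). In none of these comparisons did the mice of the 2 genotypes overlap for either gene.

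Other cytochrome P450 genes were lower at the median than all genes. Of 45 tested over both clusters, 3 were lower in SIRT7 KO mice and none was higher, beside 0.111% of all genes, with a median log2 difference of -0.87 beside 0.16 over all genes. These were Cyp2c50, with -3.70 ± 0.45 (SE, adjusted p = 0.00214 by limma), Cyp2c54, with -3.64 ± 0.54 (SE, adjusted p = 0.0171 by limma), and Cyp2c37, with -3.11 ± 0.51 (SE, adjusted p = 0.0249 by limma). They are close copies of each other, so how their reads were shared out is uncertain. In cluster 3, 3 of 43 were lower (Cyp2c50, Cyp2c54 and Cyp2e1, the ethanol-oxidizing form), and in cluster 5, 2 of 48 were (Cyp2c50 and Cyp2c54). Cyp2c50 in cluster 5 was at 2.59, 6.57 and 8.19 CP10K in wild-type mice and 0.772, 0.245 and 0.403 CP10K in SIRT7 KO mice, which did not overlap.

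Over the 18 values of mouse and zone, the genes most like each member were named by Pearson's r of log2 levels among 3251 genes. For Cyp3a44 they were Cpb2 (0.949), Cyp2c40 (0.942) and Pgrmc1 (0.931), and for Cyp3a13 Apon (0.926), Afm (0.914) and Ctsz (0.913). Cyp3a25 was most like Sec63 (0.944), Luc7l2 (0.938) and Tet2 (0.935), and Cyp3a11 most like Elovl6 (0.893), Atp6v0b (0.886) and Slc17a4 (0.869). Among members, Cyp3a44 and Cyp3a13 had 0.693, Cyp3a11 and Cyp3a25 had 0.561, and Cyp3a11 and Cyp3a44 had -0.203. No member was among the 3 genes most like another. The values share library, depth and cluster make-up, so these are descriptions.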

How the data were processed

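Single-cell RNA was measured in livers of 3 wild-type and 3 SIRT7 KO mice. Per the labels, reads were processed with Cell Ranger 6.0.0 on mm10, and the authors then filtered cells and genes. The values deposited by the authors are the natural log of UMIs per 10000 plus 1. UMIs were worked back from these values, with a largest deviation of 0.00208 from a whole number. No row of the table was left unmapped. The members and gene lists were chosen with earlier results of these data known.

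Cells were clustered with scanpy 1.11.5 and leidenalg 0.10.2 (1000 variable genes without Cyp3a, 50 components, 3 neighbors from each mouse, resolution 0.35). A doublet caller marked 0.396% of cells, too few to have worked, and no cell was removed. CP10K was averaged over the cells of a mouse, with at least 20 cells. Tests used limma 3.58.1 (R 4.3.3; trend and robust options, two-sided, Benjamini-Hochberg, threshold 0.05) on log2(CP10K + 0.05) for genes with a mean of at least 0.05, and were checked on simulated counts. Shares have Wilson 95% intervals. Motifs and sequences came from RefSeq and GENCODE.

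Genes named are the members, other Cyp3a columns, Sirt7, Xist, list genes past the threshold with Nr1i2, Nr1i3, Por, Cyp2b10, Ghr and Stat5b, and the 3 genes most like each member with at least 0.5 CP10K. Malat1 and Alb were added after values were seen. A listed gene is not reported here and was left out of its list's counts. Alternatives covered the pseudocount, the filter, summed UMIs, voom, clustering, cell filters, the zone score, each mouse left out and a replicate block.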

Additional observations from a re-analysis of the deposited data

Results flagged for a closer look

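Cyp3a59, a Cyp3a column outside the 6 members, was higher in portal cells of every SIRT7 KO mouse than in any wild-type mouse, with a mean of 0.905 CP10K in SIRT7 KO mice. The values rest on few molecules, with 17, 4 and 0 UMIs in wild-type mice and 56, 2 and 65 UMIs in SIRT7 KO mice. At the 3' end, 2.05% of the 90-base windows of Cyp3a25 also occur in Cyp3a59. The last 500 transcript bases of these genes are 95.0% identical. Beside it, 14% of all genes tested in portal cells were higher in SIRT7 KO mice without overlap. In the limma fit of portal cells Cyp3a59 had a log2 difference of 2.6 ± 0.86 (SE) and did not pass the threshold (adjusted p = 0.423 by limma). Elsewhere its direction varied, with -1.09 in central cells, 0.44 in middle cells and 0.37 over both clusters. It had -0.92 in cluster 3 and 0.98 in cluster 5, and none of these passed.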

How the results depend on the processing

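The number of members past the threshold was 0 in all comparisons as reported. It rose to 1 with a pseudocount of 0.5 in central cells and in cluster 5 (Cyp3a44 lower in both, beside 0.125% and 0.33% of all genes), with at least 1000 UMIs in central cells (Cyp3a44, beside 0.0723%), and with summed UMIs in cluster 3 (Cyp3a13 lower, beside 1.09%). With voom it was 3 in cluster 3 (Cyp3a13, Cyp3a16 and Cyp3a25, all lower, beside 5.5% of all genes) and 1 in cluster 5 (Cyp3a11 higher, beside 1.2%). In cluster 5 alone, an alternative chosen after seeing the data that leaves 5 mice in central and middle and 4 in portal cells, it was 2 in central cells (Cyp3a44 lower, Cyp3a11 higher), 1 in middle and 1 in portal cells (Cyp3a11 higher in each), beside 0.218%, 0.613% and 1.22% of all genes. The members were chosen on the genotype contrast, so nothing is read from these counts.

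Leaving out 1 mouse gave 0 to 1 in both clusters together and in each zone, 0 to 2 in cluster 3 and in cluster 5, and 0 to 1 for central against portal cells. Without SIRT7 KO mouse 3, Cyp3a44 passed in all 6 genotype comparisons, Cyp3a11 also passed in cluster 5 and Cyp3a25 in cluster 3. Without wild-type mouse 2, Cyp3a44 passed in middle and portal cells, and without wild-type mouse 3 Cyp3a25 passed between zones.

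Replicate numbers are shared by the genotypes. The deviations of same-numbered mice had r = -0.04, 0.13 and 0.003 over both clusters. In cluster 3 r was -0.056, -0.063 and -0.158, and in cluster 5 it was -0.063, -0.06 and -0.166. The numbers are therefore not taken as pairs. With a replicate block 1 member passed in portal cells (Cyp3a44 lower) and 14 genes did over both clusters (11 without it), 37 in central, 6 in middle and 17 in portal cells, 2 in cluster 3 and 38 in cluster 5.

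With 1 mouse left out, the zone difference of Cyp3a11 ranged from -0.057 to 0.43 and turned without wild-type mouse 3. The genotype difference over both clusters ranged from -0.67 to 0.070 for Nr1i3 (turned without wild-type mouse 3), from -0.52 to 0.23 for Ghr and from -0.060 to 0.25 for Stat5b (both turned without SIRT7 KO mouse 2). In single clusters, chosen after seeing the data, directions turned for the zone difference of Cyp3a13 (0.63) and Cyp3a25 (0.28) in cluster 3, and for the genotype difference of Ghr in cluster 5 (0.17) and Stat5b in cluster 3 (-0.45). Of the calls in listed genes, Hao2 over both clusters was lost in 11 of 21 alternatives, Cyp2c37 in 13, Cyp2c54 in 9 and Cyp2c50 in 1. Of 13 alternatives in cluster 5, Fos and Cyp2c54 each lost the call in 8, Egr1 in 7 and Sult2a1 in 6. Junb and Cyp2c50 each lost it in 1 there, and Ier2 in none. In cluster 3, Cyp2e1 lost it in 11, Hao2 in 6, Cyp2c54 in 4, and Sult2a1 and Cyp2c50 in 1 each. The causes were not tested. Genes past the threshold ranged from 3 to 44 over both clusters, 2 to 470 in cluster 3, 5 to 124 in cluster 5 and 0 to 169 between zones. Depth limits Cyp3a16 and Cyp3a41a most, and the 101 hepatocyte cells of wild-type mouse 3 limit every value of that mouse.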
